A study of Homo sapiens with 8 samples.

Results

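The genes described here are 51 homeobox genes of body patterning outside the HOX clusters, in 13 families: DLX, EMX and VAX, EN and GBX, IRX, LIM homeobox, MEIS and PBX, MSX, NKX, OTX and PITX, PAX, SIX2, TLX and ZFHX. They were taken by name from the 19656 genes that the peak lists name. A peak was counted for a gene where the authors' lists name that gene for the peak at a distance of at most 50 kb from the gene start. Of the 201619 peaks in the 6 lists, 794 were counted for these genes, and 21 of them were named for 2 of the genes, so that there were 815 pairs of a peak and a gene.

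The study mapped OCT4, SOX2 and NANOG, the transcription factors at the centre of the pluripotency network, by chromatin immunoprecipitation followed by sequencing (ChIP-seq). The groups were H9 SOX2, H9 OCT4 and H9 NANOG, from H9, a human embryonic stem cell line, and NT2/D1 SOX2, NT2/D1 OCT4 and NT2/D1 NANOG, from the human embryonal carcinoma line NT2/D1, a germ cell tumour line. The labels give no treatment, genotype change or time point for any of them. Each group was 1 library, and each line is a single line, so no difference between groups could be set against a replicate error. All intervals are 95% Wilson intervals and cover counting error only, and neighbouring genes can share a peak, so genes are not independent of each other. The IgG samples of the labels, 1 in each line, were not analysed here on their own; the peaks were called against IgG libraries.

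Homeobox genes encode transcription factors that bind DNA through the homeodomain and give cells their position and identity in the embryo. OCT4 and NANOG are homeodomain proteins themselves, while SOX2 binds through an HMG box. In pluripotent cells most of the patterning genes are known to be silent or nearly so and are switched on as lineages are chosen. OCT4 and SOX2 are known to bind side by side, at a SOX motif next to an octamer.

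The promoters of 40 of the 51 genes were found by symbol in a RefSeq table of 35116 promoters (GRCh38.p14), each from 250 bases before to 50 bases after a start. The octamer ATGCAAAT, searched on both strands, was in 1.77% of all promoters of the table and in the promoters of LHX6 and NKX6-1, which is 3.57% of the 56 promoters of these genes. The SOX core CATTGT, searched on both strands, was in 10.8% of all promoters and in 1 promoter each of DLX1, ISL2, LHX6, MEIS1 and ZFHX3, or 8.93%. The SOX core followed within 3 bases by the octamer was in 0.00570% of all promoters and in none of these 56. Below are the 250 bases before the start at MEIS1, whose start was covered by SOX2 and NANOG peaks in H9, at TLX3, whose start was covered by a NANOG peak in H9, and at NKX6-1, where an H9 OCT4 peak ended 236 bp upstream of the start. Capitals mark a match to a searched motif.
MEIS1 (plus strand, chr2:66434875-66435124): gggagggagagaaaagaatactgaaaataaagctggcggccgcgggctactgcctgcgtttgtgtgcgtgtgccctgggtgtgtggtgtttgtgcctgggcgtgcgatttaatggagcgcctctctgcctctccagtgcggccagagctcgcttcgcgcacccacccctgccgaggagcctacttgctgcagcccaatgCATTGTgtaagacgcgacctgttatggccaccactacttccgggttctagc
TLX3 (plus strand, chr5:171308998-171309247): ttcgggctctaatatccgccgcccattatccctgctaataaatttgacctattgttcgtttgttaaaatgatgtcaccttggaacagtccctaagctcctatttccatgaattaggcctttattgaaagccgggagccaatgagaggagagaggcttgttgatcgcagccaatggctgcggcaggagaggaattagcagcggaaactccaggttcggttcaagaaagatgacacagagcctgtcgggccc
NKX6-1 (minus strand, chr4:84499293-84499542): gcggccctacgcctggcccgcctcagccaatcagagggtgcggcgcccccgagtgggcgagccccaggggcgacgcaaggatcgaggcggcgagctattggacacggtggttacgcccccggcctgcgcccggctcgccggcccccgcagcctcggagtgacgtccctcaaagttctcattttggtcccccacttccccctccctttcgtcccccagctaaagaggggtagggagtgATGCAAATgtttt
MEIS1 held the SOX core 51 to 46 bases before the start, NKX6-1 held the octamer 13 to 6 bases before it, and neither motif was found in the stretch of TLX3. The peaks are on hg19, an older build, and the start in the table need not be the start that the authors used, so a motif cannot be placed inside or outside a peak here. The sequences of the peaks were not analysed here.

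In H9 nearly all of the patterning genes had an OCT4 or a NANOG peak within 50 kb, and about 2 in 3 had a SOX2 peak. The H9 SOX2 list held a peak for 34 of the 51 genes (66.7%, interval 53.0% to 78.0%), against 33.6% of all genes named in the lists. For H9 OCT4 it was 48 genes (94.1%, interval 84.1% to 98.0%), against 55.4% of all genes. For H9 NANOG it was 46 genes (90.2%, interval 79.0% to 95.7%), against 54.2%. The share of the homeobox genes was thus above that of all genes in each H9 list, beyond its counting interval.

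In NT2/D1, within 50 kb and by the titles of the samples, the share was above that of all genes beyond its counting interval for OCT4 and not for SOX2 or NANOG. The NT2/D1 OCT4 list held a peak for 48 genes (94.1%, interval 84.1% to 98.0%), against 75.7% of all genes. The NT2/D1 SOX2 list held one for 33 genes (64.7%, interval 51.0% to 76.4%), against 55.1%, and NT2/D1 NANOG for 32 genes (62.7%, interval 49.0% to 74.7%), against 55.3%. These last 2 intervals take in the share of all genes. The OCT4 library of NT2/D1 also differs from the other 2 of its line in its IgG library, in a model fold of 5 against 3 and in depth, with 10218752 unique tags against 19669139 and 23160564, and these cannot be told apart from the factor. With the NT2/D1 OCT4 and NANOG labels exchanged, the higher share goes with NANOG, at 94.1% against 75.7%, and OCT4 has 62.7% against 55.3%.

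In H9 the difference from all genes was wider, as a ratio, close to the start. Within 5 kb, H9 SOX2 had a peak at 21 genes (41.2%, against 9.59% of all genes), H9 OCT4 at 43 (84.3%, against 24.1%) and H9 NANOG at 38 (74.5%, against 21.5%). In NT2/D1 the counts within 5 kb were 7 for SOX2 (13.7%, against 17.3%), 26 for OCT4 (51.0%, interval 37.7% to 64.1%, against 38.5%) and 16 for NANOG (31.4%, interval 20.3% to 45%, against 18.4%). So close to the start it was the NANOG share of NT2/D1 that lay above all genes beyond its interval, while the OCT4 interval takes in the share of all genes. SOX2 in NT2/D1 was the list in which these genes lay below the background within 5 kb, with an interval of 6.81% to 25.7% that includes it.

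**Figure D1:**
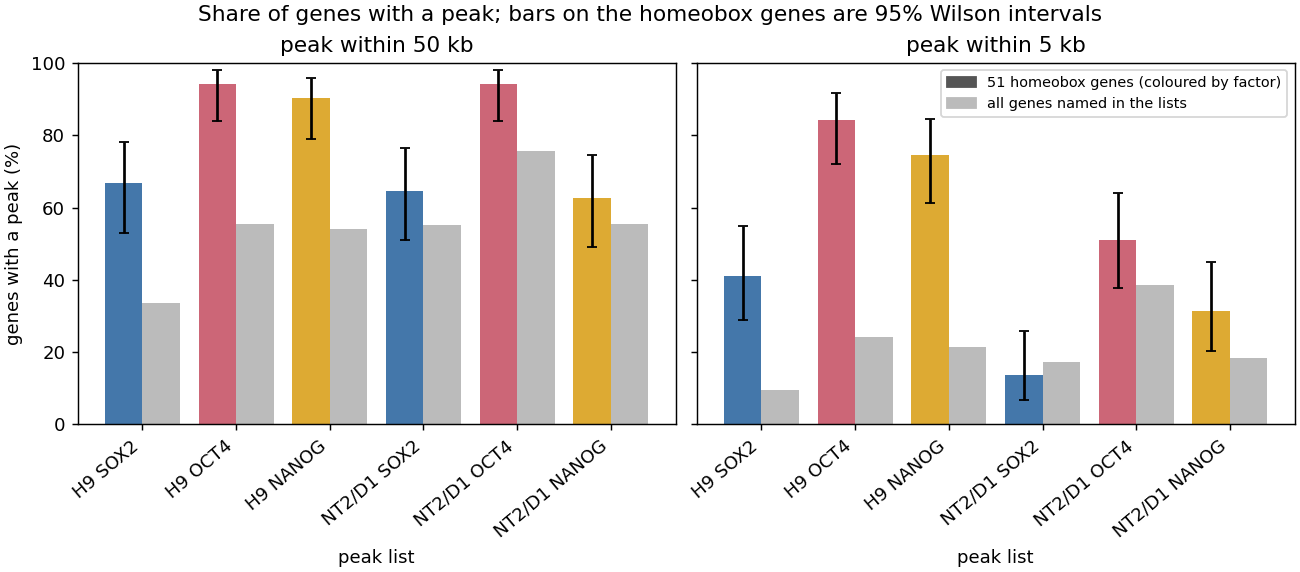
Share of genes (y axis, percent) with a peak within 50 kb (left) or 5 kb (right) of their start in each of the 6 peak lists (x axis). Coloured bars are the 51 homeobox genes with their 95% Wilson intervals, and grey bars are the 19656 genes named in the lists. The coloured bars stand well above the grey ones in the H9 lists, and within 5 kb H9 OCT4 reached 84.3% against 24.1%.

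A gene with distant neighbours can be named by more peaks, and the median window in which a peak would be named for a gene was 94.2 kb for these genes and 82.6 kb for all genes. Per megabase of window, the H9 lists held 16.7 SOX2, 55.5 OCT4 and 38.0 NANOG peaks at these genes, against 6.68, 13.5 and 13.3 at all genes. These are ratios of 2.5, 4.10 and 2.86. The NT2/D1 lists held 15.4 SOX2, 33.1 OCT4 and 20.2 NANOG peaks per megabase, against 16.2, 21.9 and 16.1, which are ratios of 0.945, 1.51 and 1.26. Peaks were thus denser at the patterning genes than at genes at large for each factor in H9. By the titles of the samples, the ratio within 50 kb was highest for OCT4 in each line. Within 5 kb, however, the NT2/D1 ratio was 1.25 for OCT4, below the 1.55 for NANOG, and 0.777 for SOX2. With the NT2/D1 OCT4 and NANOG labels exchanged, the NT2/D1 ratios of OCT4 and NANOG change places.

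Peaks spread unequally over the chromosomes in the 2 lines, and copy number was not analysed here. On the 9 chromosomes that took a larger share of every NT2/D1 list than of every H9 list, which hold 27 of the genes, the ratios to all genes of those chromosomes were 2.53, 4.62 and 3.09 in H9, and in NT2/D1 0.827, 1.34 and 1.18 for SOX2, OCT4 and NANOG. On the 9 chromosomes that took a smaller share, with 17 of the genes, they were 1.75, 3.18 and 2.48 in H9, and in NT2/D1 0.599, 1.82 and 1.27. On the other 5, with 6 of the genes, they were 4.93, 4.70 and 2.68 in H9, and in NT2/D1 2.07, 1.68 and 1.17. For each factor the ratio was higher in H9 than in NT2/D1 in all 3 groups of chromosomes. Depth, control library and calling settings also differed between the lines. Unique tags per library ran from 54046559 to 77649240 in H9 and from 10218752 to 23160564 in NT2/D1. Peaks were called with a band width of 2000 and 200, and the median peak was 408 to 705 bp and 272 to 380 bp wide, in H9 and NT2/D1 in that order. These settings cannot be told apart from the cell line.

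The peaks of H9 crowded around the starts of these genes, and those of NT2/D1, with its lists pooled, did not. In H9, 211 of 502 pairs (42.0%) lay within 5 kb of the start, against 27.1% of the pairs of all genes, and the median distance was 6566 bp against 15880.5 bp. A further 25.1% lay between 5 and 10 kb, and 4.98% between 40 and 50 kb. In NT2/D1, 58 of 313 pairs (18.5%) lay within 5 kb, against 22.2% for all genes, and the median distance was 20884 bp against 17504 bp. The NT2/D1 lists differed, with 12.9% of pairs within 5 kb for SOX2 (17.9% over all genes), 19.9% for OCT4 (27.7%) and 20.7% for NANOG (19.2%). By list, the H9 median was 6688 bp for SOX2, 5786 bp for OCT4 and 7583 bp for NANOG, and the NT2/D1 median 21635.5, 19733 and 23036 bp. At the outer edge of the 50 kb rule, 31 pairs lay 45 to 50 kb from a start and 34 lay just outside, at 50 to 55 kb.

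**Figure D2:**
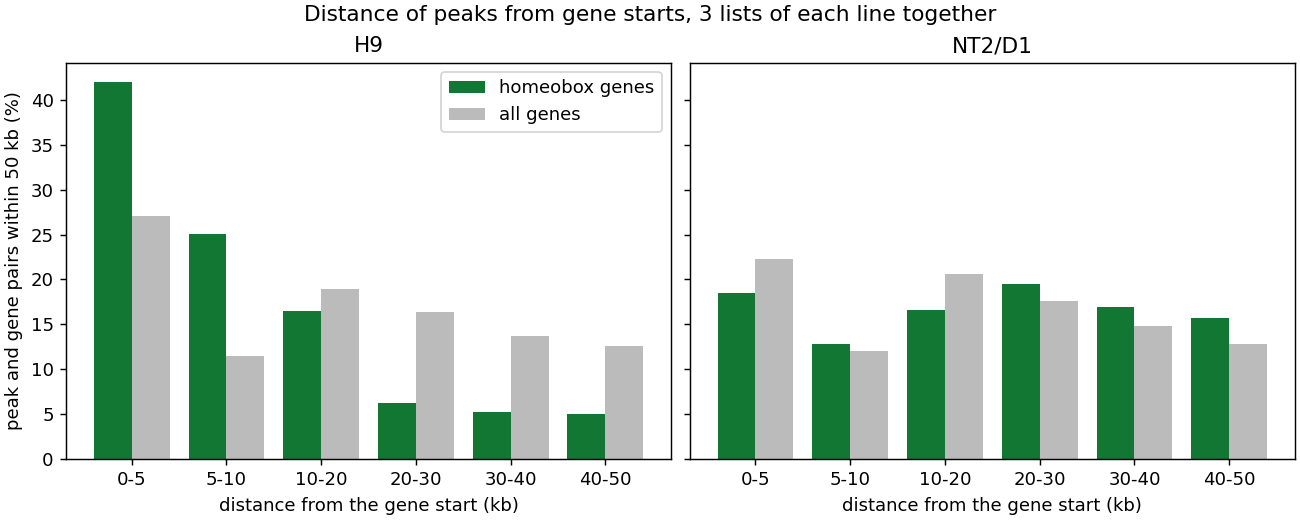
Percent of the peak and gene pairs within 50 kb (y axis) by distance from the gene start in kb (x axis), with the 3 lists of H9 (left) and of NT2/D1 (right) pooled. Green bars are the 51 homeobox genes and grey bars all genes. In H9 42.0% of the homeobox pairs fall in the first 5 kb, and in NT2/D1 18.5%.

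In H9 few of the peaks near these starts were among the strong ones of their lists. Strength is given as a score percentile, the rank of a peak by the authors' score within its own list, with the strongest peak at the top. The 31 H9 SOX2 pairs within 5 kb had a median percentile of 24.7 and a median fold enrichment of 3.87, and none of them was in the upper 10% of the list. The H9 OCT4 and NANOG peaks within 5 kb had median percentiles of 50.8 and 50.6, and 4 of 119 and 1 of 61 were in the upper 10%. Between 5 and 50 kb the H9 median percentiles were 31.7, 53.2 and 49.9 for SOX2, OCT4 and NANOG, and 6 of 43, 11 of 129 and 10 of 107 peaks were in the upper 10%. In NT2/D1 the medians within 5 kb were 55.9, 58.1 and 54.8 in the same order, with 2 of 9, 1 of 30 and 0 of 19 in the upper 10%. These values by distance were not computed for the peaks of all genes, so they are not shown to be particular to these genes. Over the whole 50 kb, the median fold at these genes was 3.985 for H9 SOX2 against 5.19 in the whole list, 4.16 against 4.52 for OCT4 and 4.49 against 5.11 for NANOG. In NT2/D1 it was 6.31 against 6.25 for SOX2, 8.45 against 8.71 for OCT4 and 7.04 in both for NANOG. Folds and tag counts are the authors' values and are not compared between lists, since depth and control differ.

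Start positions themselves were covered 14 times, at 10 of the genes, 11 times by H9 peaks and 3 times by NT2/D1 OCT4 peaks. As a share of the pairs this was below all genes in each list. The H9 shares were 1.32% for SOX2 (2.91% over all genes), 1.19% for OCT4 (3.33%) and 4.05% for NANOG (4.59%). The NT2/D1 OCT4 share was 1.99% (6.10%), and the other two NT2/D1 lists had 0 (0.825% for SOX2 and 0.95% for NANOG). With at most 7 such peaks in a list, these differences were not tested. These are shares of pairs and not of genes, and in H9 pairs were denser at these genes. Whether density bears on these shares was not tested. The share of all genes with a covered start was not computed. DLX5 and ZFHX4 had OCT4 and NANOG over the start in H9, MEIS1 had SOX2 and NANOG, and EN1 had OCT4. LHX8, NKX2-2 and TLX3 had NANOG in H9. MEIS2 had NANOG in H9 and OCT4 in NT2/D1, and DLX3 and IRX4 had OCT4 in NT2/D1.

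Of the 51 genes, 16 had a peak in all 6 lists (11.5% of all genes did), 17 in 5 lists, 11 in 4, 4 in 3 and 2 in 2. PITX3, which acts in the lens and in midbrain dopamine neurons, had no peak named for it within 50 kb in any list. Of all genes, 2.77% had none. The nearest H9 peak named for PITX3 lay 53.3 kb away. Peaks named for neighbouring genes could lie nearer. All 3 factors had a peak at 32 genes in H9 (62.7%, against 23.8% of all genes) and at 24 in NT2/D1 (47.1%, against 34.3%). Peaks were more numerous in H9 at 38 genes (74.5%, against 27.1% of all genes) and in NT2/D1 at 11 (21.6%, against 60.2%). In sum the NT2/D1 lists were longer (118800 peaks against 82819). NKX2-1, of thyroid, lung and ventral forebrain, and NKX6-1, of ventral spinal cord and pancreatic beta cells, had peaks within 50 kb in H9 alone (7.98% of all genes did). LHX3, of the pituitary and motor neurons, had peaks within 50 kb in NT2/D1 alone (23.2% of all genes did). The nearest H9 peak named for LHX3 lay 51.3 kb away. OCT4 gave the largest number of H9 peaks at 31 genes (60.8%, against 25.8% of all genes), NANOG at 8 and SOX2 at 1, MEIS1. The share of all genes was not computed for the NANOG and SOX2 counts, nor for peaks in 5, 4, 3 or 2 lists.

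**Figure D3:**
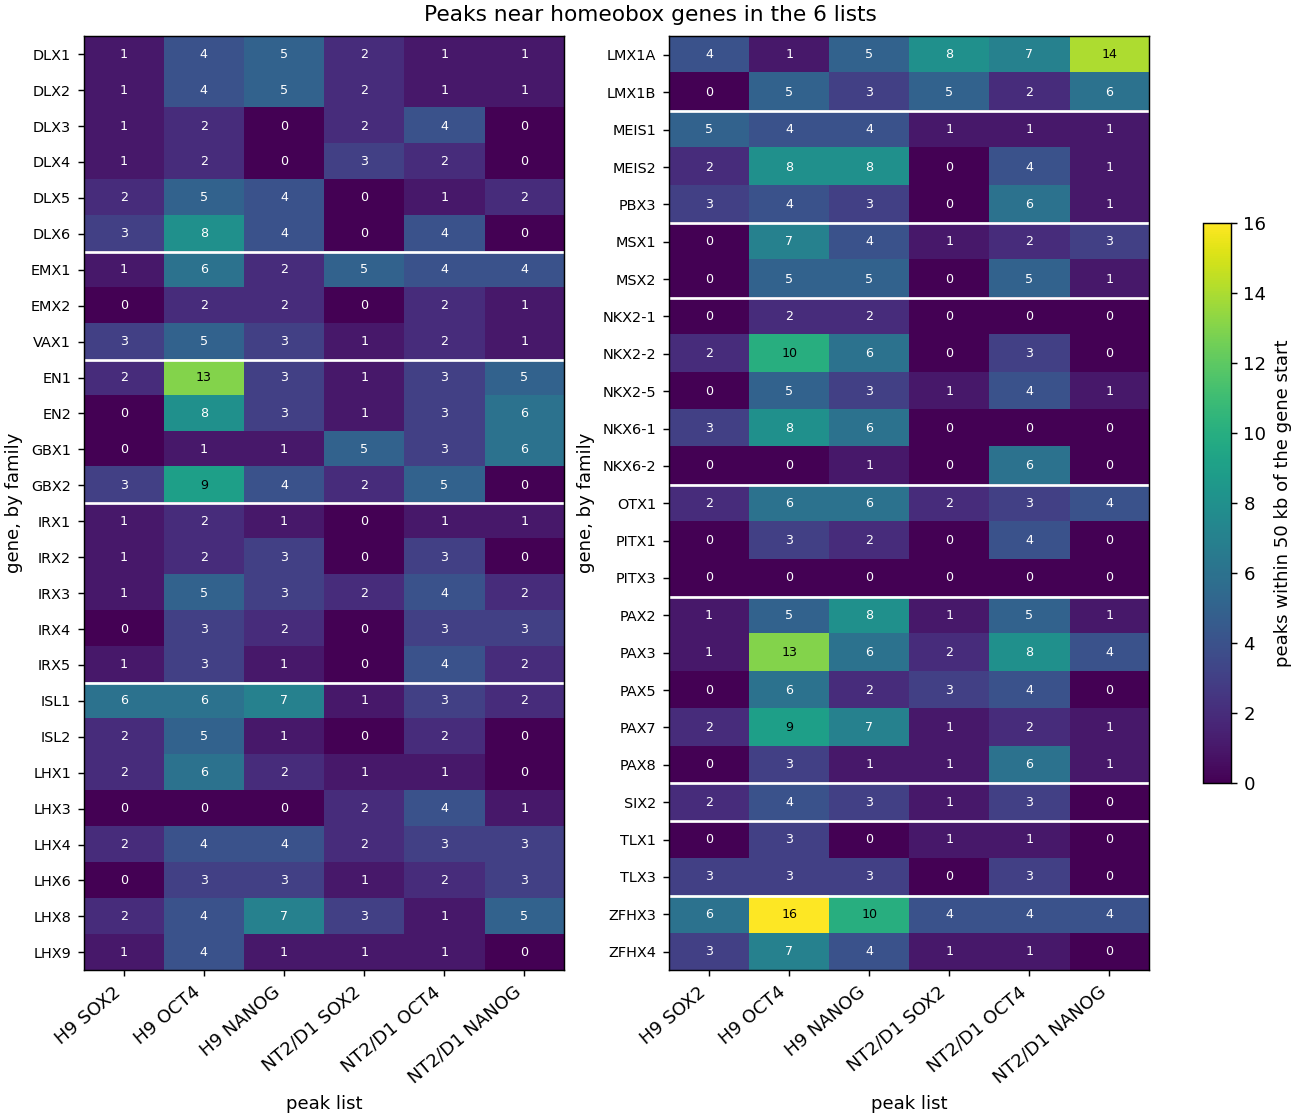
Number of peaks within 50 kb of the start (colour and printed number) for each of the 51 homeobox genes (rows, white lines between families) in the 6 peak lists (columns). ZFHX3 with 16 H9 OCT4 peaks and LMX1A with 14 NT2/D1 NANOG peaks hold the highest counts, and the row of PITX3 is 0 throughout.

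A region was called a 3-factor region where peaks of SOX2, OCT4 and NANOG of the same line overlapped, directly or in a chain, by at least 1 bp. In H9, 22 of the genes had such a region within 50 kb (43.1%, interval 30.5% to 56.7%), against 17.1% of all genes. In NT2/D1 it was 6 genes (11.8%, interval 5.51% to 23.4%), against 5.61%. Within 5 kb the counts were 10 in H9 (19.6%, against 4.35%) and 0 in NT2/D1 (interval up to 7.0%, against 1.38%). The same 6 genes that had a region in NT2/D1 also had one in H9, ISL1, LHX8, LMX1A, OTX1, VAX1 and ZFHX3, against 3.54% of all genes with one in both lines. The H9 regions numbered 29. Of these, 15 met no NT2/D1 peak, 14 met an NT2/D1 OCT4 peak, and 6 met peaks of all 3 factors. Of the 3425 H9 3-factor regions within 50 kb of any gene, 39.3% met no NT2/D1 peak, 54.5% met an OCT4 peak and 15% met all 3, against 51.7%, 48.3% and 20.7% of the 29. Although these genes had more OCT4 peaks, a smaller part of them was in 3-factor regions, 13.7% of the H9 OCT4 peaks against 29.3% of the whole list. For H9 SOX2 it was 39.2% against 43.0%, and for H9 NANOG 17.9% against 24.5%. The NT2/D1 lists went the other way, with 10.6% against 5.11% for SOX2, 5.44% against 4.23% for OCT4 and 7.69% against 5.80% for NANOG. The whole lists take in peaks at any distance from a gene.

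A total of 6 regions within 50 kb of a gene were called in all 6 lists. At 5 of them the peaks were among the strong ones of nearly every list, and those 5 lay more than 10 kb from the start.

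VAX1, which patterns the ventral forebrain and the optic nerve, had its region 20.1 kb upstream, at chr10:118917905-118920926 (hg19). In H9 the fold enrichment there was 27.0 for SOX2, 9.48 for OCT4 and 42.8 for NANOG, from 232, 109 and 439 tags. In NT2/D1 it was 10.1, 14.6 and 19.8, from 53, 22 and 64 tags. All 6 peaks were above the 95th percentile of their lists, the lowest at 95.4, and the H9 SOX2 peak at 99.6 was the highest of the EMX and VAX family. The other 4 H9 OCT4 peaks of VAX1 had folds of 2.96 to 5.73.

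ISL1, of motor neurons, cardiac progenitors and pancreatic islets, had its region 11.3 kb downstream of the start, at chr5:50690234-50691031. The folds were 26.8, 13.3 and 29.4 in H9, and in NT2/D1 14.6, 17.8 and 9.09 for SOX2, OCT4 and NANOG, and the lowest percentile was 94.8. ISL1 had 2 more 3-factor regions in H9. The one 3.0 kb upstream reached a fold of 17.3 for NANOG and met OCT4 and NANOG peaks of NT2/D1, and the one 1.9 kb downstream met no NT2/D1 peak.

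OTX1, a forebrain and sense organ gene, had a pair of such regions. At 41.3 kb upstream, at chr2:63235739-63236642, the folds were 19.7, 8.70 and 28.3 in H9, and in NT2/D1 16.7, 34.8 and 35.0, and the lowest percentile was 96.9. At 5.6 kb upstream, at chr2:63270507-63272386, they were 4.24, 3.67 and 8.53 in H9, and in NT2/D1 6.47, 6.90 and 8.05, and the H9 SOX2 peak was at percentile 11.3. The far region was thus the stronger one in each of the 6 lists.

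ZFHX3, which encodes a large protein with several zinc fingers and homeodomains, had its region 14.3 kb downstream, at chr16:73066238-73068014. The folds were 16.6, 14.1 and 40.6 in H9, and in NT2/D1 12.8, 9.93 and 11.3, and the lowest percentile was 86.5, for NT2/D1 OCT4. A second H9 3-factor region 7.2 kb downstream met SOX2 and OCT4 peaks of NT2/D1, of which OCT4 had a fold of 17.7. With 32 peaks, ZFHX3 had the most of any of the genes in H9, where the median gene had 10.

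LHX8, of basal forebrain cholinergic neurons and oocytes, had its region 43.9 kb upstream, at chr1:75548745-75550254. The folds were 15.9, 9.75 and 18.9 in H9, and in NT2/D1 11.3, 19.7 and 7.04. Their percentiles were 92.6 to 99.4 except for NT2/D1 NANOG, at 26.0. A region 7.0 kb downstream was called for all 3 factors in H9 alone.

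**Figure D4:**
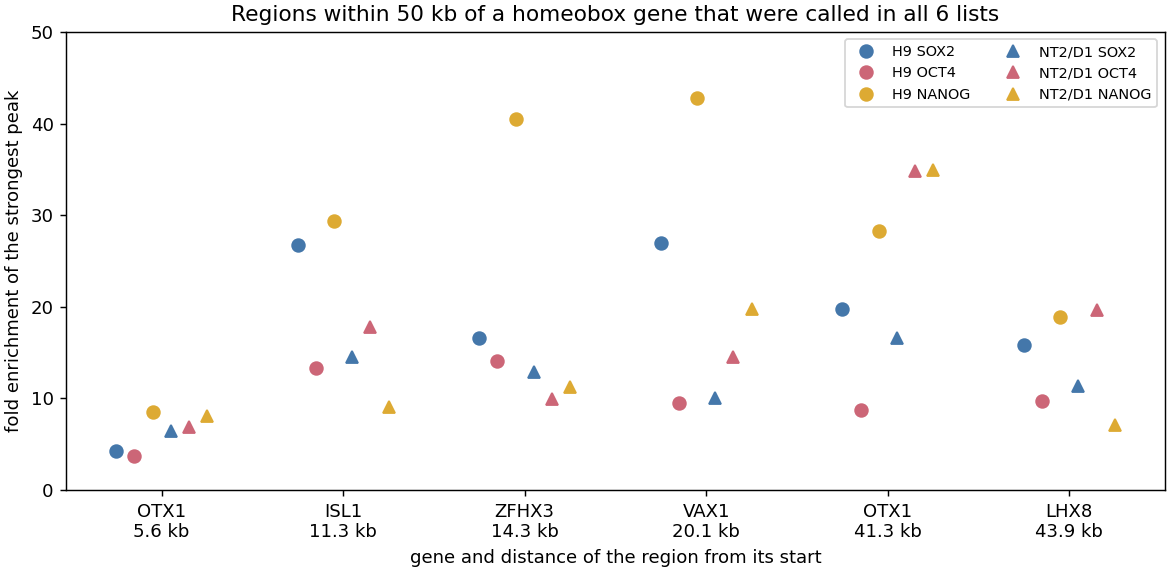
Fold enrichment of the strongest peak of each list (y axis) at the 6 regions within 50 kb of a homeobox gene that were called in all 6 lists (x axis, gene and distance from its start). Circles are H9 and triangles NT2/D1, coloured by factor. In each list the fold at the OTX1 region 41.3 kb upstream is above that at the one 5.6 kb upstream. Heights are not compared between lists.

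LMX1A, of the roof plate and midbrain dopamine neurons, differed from these 5 in that its H9 and NT2/D1 regions were at different sites. The lists name it from 2 starts, at chr1:165182512 and chr1:165325017 on the minus strand, so its window was 200 kb. The H9 region lay 20.4 kb upstream of one start, with folds of 3.68, 4.85 and 3.67 and percentiles of 57.7, 3.61 and 0.50, and met an NT2/D1 OCT4 peak. The NT2/D1 region lay 35.5 kb upstream of the other start, with folds of 6.04, 8.91 and 6.26 and percentiles of 89.7, 24.8 and 71.7, and met an H9 SOX2 peak. LMX1A had the most peaks of any of the genes in NT2/D1, with 8 for SOX2, 7 for OCT4 and 14 for NANOG, against 4, 1 and 5 in H9.

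For a single factor, 11 genes had a SOX2 peak at the same site in both lines (21.6%, against 7.42% of all genes), 25 an OCT4 peak (49.0%, against 20.0%) and 10 a NANOG peak (19.6%, against 8.69%). Of the NT2/D1 peaks at these genes, 19.7% for SOX2, 21.8% for OCT4 and 17.6% for NANOG overlapped an H9 peak of the same factor, against 8.36%, 17.1% and 10.1% of the whole lists. Of the H9 OCT4 peaks at these genes 12.9% had an NT2/D1 OCT4 partner, against 26.1% of the list. The other H9 lists were near their list share, with 17.6% against 16.2% for SOX2 and 8.93% against 9.83% for NANOG. For NT2/D1, 1 label field of the OCT4 sample names NANOG and that of the NANOG sample names OCT4, against their titles. The titles were followed, and the exchanged reading gives 12 genes with a same-site OCT4 peak and 26 with a same-site NANOG peak.

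The families differed in how much they had in each line. By family, per megabase of window and over the 3 lists together, H9 had between 59.1 peaks at the IRX genes and 259.8 at the ZFHX genes, and NT2/D1 between 25.2 at the TLX genes and 116.0 at the EN and GBX genes. All genes together had 33.5 in H9 and 54.2 in NT2/D1. Each of the 13 families was above this in H9, and 6 were below it in NT2/D1, DLX (53.9), MEIS and PBX (52.8), IRX (51.0), SIX2 (47.8), NKX (33.8) and TLX.

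**Figure D5:**
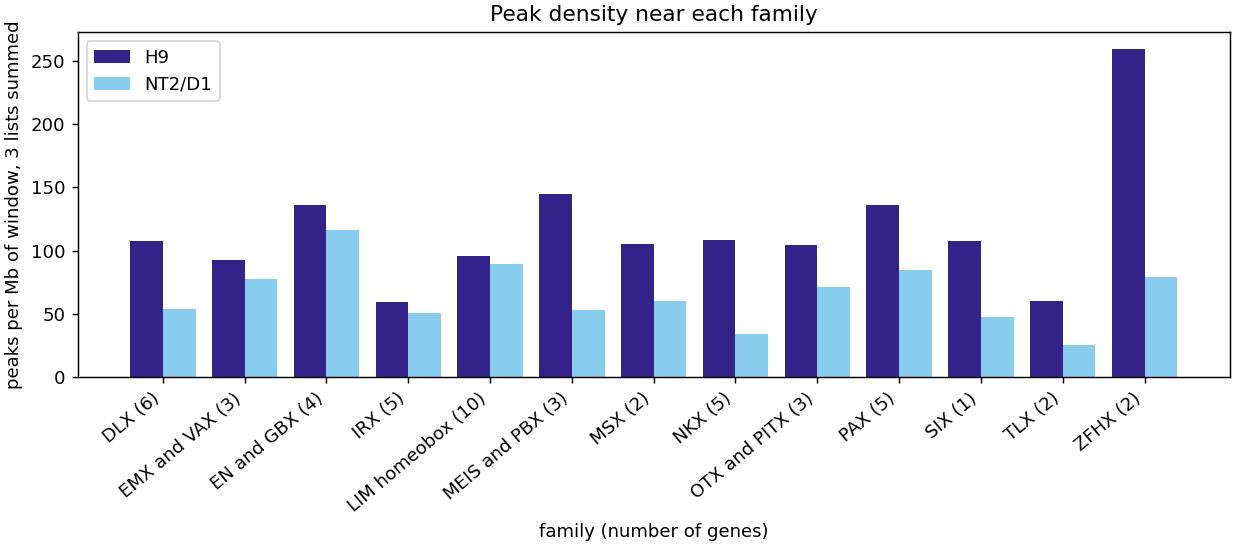
Peaks per megabase of window, the 3 lists of a line summed (y axis), for the 13 families with the number of genes in brackets (x axis). Dark bars are H9 and light bars NT2/D1; PITX3 has no window. ZFHX in H9 is the highest at 259.8, and the LIM homeobox and IRX families show the smallest gaps between the lines.

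The forebrain and arch genes of the DLX family had 40 peaks in H9 and 17 in NT2/D1. All 6 had SOX2 and OCT4 peaks in H9. The neighbours DLX1 and DLX2 share a 3-factor region of H9, 45.6 kb downstream of DLX1 and 28.3 kb upstream of DLX2, with folds of 6.54, 6.69 and 9.01. At that site NT2/D1 had SOX2 and OCT4 peaks with folds of 9.34 and 8.29, and the SOX2 peak was the strongest of the family by percentile (94.6). In the EMX and VAX family EMX1 and EMX2, genes of the developing cerebral cortex, had no 3-factor region in either line.

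EN1, EN2 and GBX2 act at the midbrain and hindbrain boundary. The family with GBX1 had 47 peaks in H9 and 40 in NT2/D1. EN1 had 2 SOX2, 13 OCT4 and 3 NANOG peaks in H9, and 1, 3 and 5 in NT2/D1. GBX2 held the strongest peak of all by percentile, an NT2/D1 OCT4 peak 8.1 kb downstream with 107 tags, a fold of 19.6 and a percentile of 99.9. At this site, chr2:237067790-237068560, the folds were 10.2 for SOX2 and 7.87 for OCT4 in H9 and 7.93 for SOX2 in NT2/D1, and NANOG was not called in either line. GBX1 went the other way from the rest of its family, with 2 peaks in H9 and 14 in NT2/D1.

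The 5 IRX genes, which pattern the neural plate and the heart, had 29 peaks in H9 and 25 in NT2/D1. IRX3 held the strongest, an NT2/D1 OCT4 peak 44.9 kb upstream with a fold of 14.3 (percentile 95.2), at a site with SOX2 in NT2/D1 (fold 10.4) and with all 3 factors in H9 (folds of 6.29, 5.01 and 7.40). NT2/D1 NANOG was not called there.

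The 10 LIM homeobox genes had 90 peaks in H9 and 84 in NT2/D1. Beside ISL1, LHX8 and LMX1A, ISL2, LHX4 and LHX9 had 3-factor regions in H9, with folds from 3.01 to 6.85 and no NT2/D1 peak at any of the 3 sites. LMX1B, which acts in the dorsal limb and kidney, had 8 peaks in H9 and 13 in NT2/D1.

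MEIS and PBX proteins are partners of HOX proteins. Their 3 genes had 41 peaks in H9 and 15 in NT2/D1. MEIS1 had 5 SOX2, 4 OCT4 and 4 NANOG peaks in H9 and 1 of each in NT2/D1. Its SOX2 and NANOG peaks over the start had folds of 2.88 and 3.84 and percentiles of 40.5 and 47.6. PBX3 held the strongest peak of the family, an NT2/D1 OCT4 peak 7.1 kb downstream with a fold of 19.2 (percentile 97.4), where H9 had all 3 factors with folds of 5.32, 5.09 and 6.62. MEIS2 had 2 3-factor regions in H9, 2.6 kb downstream and 4.9 kb upstream, and neither met an NT2/D1 peak.

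MSX1 and MSX2, targets of BMP signalling in the neural crest and teeth, had no SOX2 peak in H9, 12 OCT4 peaks and 9 NANOG peaks. Near the start of MSX1, OCT4 was called at 154 bp upstream in H9 (fold 4.59) and at 153 bp in NT2/D1 (fold 8.0), and NANOG at 198 bp in NT2/D1 (fold 11.7, percentile 82.0).

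The NKX genes had 48 peaks in H9 and 15 in NT2/D1, of which 13 were OCT4 peaks. NKX2-2, of the ventral neural tube, had 2 SOX2, 10 OCT4 and 6 NANOG peaks in H9 and 3 OCT4 peaks in NT2/D1. Its strongest was an H9 OCT4 peak 131 bp upstream of the start with a fold of 5.60 (percentile 89.0). NKX6-1 had 3 SOX2, 8 OCT4 and 6 NANOG peaks in H9 but no peak within 50 kb in NT2/D1. Its OCT4 peak 236 bp upstream had a fold of 6.87 (percentile 76.3). NKX6-2 had 1 H9 NANOG peak and 6 NT2/D1 OCT4 peaks.

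The PAX genes, some of which keep only a partial homeodomain beside their paired domain, had 64 peaks in H9 and 40 in NT2/D1. PAX3, of neural crest and muscle, had 13 OCT4 peaks in H9 and 8 in NT2/D1. PAX5, known from B cells and the midbrain, held the strongest peak of the family, an NT2/D1 OCT4 peak 19.3 kb upstream with a fold of 7.69 (percentile 95.6), where H9 OCT4 had a fold of 2.74 and H9 NANOG of 4.62. PAX7, of muscle stem cells, had the one 3-factor region of the family, in H9, 18.1 kb downstream.

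SIX2, of nephron progenitors, had 2 SOX2, 4 OCT4 and 3 NANOG peaks in H9 and 1 SOX2 and 3 OCT4 peaks in NT2/D1. At 31 kb upstream an NT2/D1 OCT4 peak with a fold of 19.9 (percentile 96.4) met H9 SOX2 and NANOG peaks with folds of 3.94 and 5.63, while OCT4 was not called there in H9. TLX3, of sensory and spinal neurons, had 3 peaks of each factor in H9 and 3 OCT4 peaks in NT2/D1. Its strongest was an NT2/D1 OCT4 peak 3.7 kb downstream with a fold of 5.96 (percentile 81.9). The NANOG peak over its start had a fold of 5.18 in H9. Neither SIX2, TLX1 nor TLX3 had a NANOG peak within 50 kb in NT2/D1.

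Of 63 other homeobox genes that the lists name, 43, 55 and 57 had a SOX2, OCT4 and NANOG peak within 50 kb in H9, and 40, 55 and 41 in NT2/D1, and 26 had a 3-factor region in H9 and 4 in NT2/D1. The 4 with one in both lines were CDX2, OTX2, GSC and BARHL2. Of 38 HOX genes it was 22, 37 and 35 in H9, and in NT2/D1 21, 28 and 11. For NT2/D1 NANOG that is 28.9% of the HOX genes (interval 17.0% to 44.8%) and 62.7% of the patterning genes (49.0% to 74.7%). With the labels exchanged it is 73.7% (58.0% to 85.0%) and 94.1% (84.1% to 98.0%), and those intervals overlap. HOX genes lie in clusters, so they are not independent of each other. Peaks per megabase of window were not computed for the HOX genes. The H9 shares within 5 kb were high in all of these sets. For SOX2, OCT4 and NANOG they were 41.2%, 84.3% and 74.5% of the 51 genes. They were 41.3%, 66.7% and 66.7% of the other homeobox genes, and 47.4%, 94.7% and 78.9% of the HOX genes. Within 5 kb, NT2/D1 NANOG had a peak at 31.4% of the 51 genes (interval 20.3% to 45%), at 15.9% of the other homeobox genes (8.86% to 26.8%) and at 10.5% of the HOX genes (4.17% to 24.1%). These intervals overlap. With the labels exchanged the 5 kb shares are 51.0%, 50.8% and 47.4% in that order, and none of these differences was tested.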

How the data were processed

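SOX2, OCT4 and NANOG were mapped by ChIP-seq in H9 and NT2/D1 cells, 1 library per factor and line. Peaks were called by the authors with MACS on hg19, per the file headers and the submitters' processing notes, at a p-value cutoff of 0.001 and a tag size of 50, each library against an IgG library; no aligner or MACS version is given in the sources used here. Deposited tag counts are whole tags per peak without normalization. Fold enrichment is a ratio over background made by the authors, and the deposited FDR is in percent. The deposited score, whose column name had been overwritten, was read as a multiple of the negative log10 p-value and used only to rank peaks within a list. The authors added 2 genes to each peak with their distances. Gene starts and strands recovered from these distances (at least 2 votes) explained 98.8% of the names within 50 kb: the first gene is the one a peak lies upstream of and the second the one it lies downstream of.

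Peaks were counted for a gene at 50 kb or less. Windows, regions merged at 1 bp of overlap, and Wilson intervals were computed with Python 3.11.15, pandas 2.3.3, numpy 2.4.6 and, for the intervals, scipy 1.17.1. The recovered starts, the windows and the pairs of peaks and genes were tested on simulated data, and the merging on a small made example. The Wilson intervals were not tested in this way. No test between libraries was possible with 1 library per group. The members and lists were chosen with earlier results of these data known. Named in full are genes with a 3-factor region in both lines and the gene with the highest percentile in each family; other genes named with values were chosen after their values were seen. The chromosome groups, the split at 5 kb by strength and the choice of printed promoters were also made after seeing the data. Exons, introns and peak sequences were not analysed here. Alternatives were limits of 5 and 10 kb, the upper 50% of each list by score, equal list lengths (19349 peaks), an FDR of at most 5%, the nearer gene only, summits within 200 bp, and exchanged NT2/D1 labels.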

Additional observations from a re-analysis of the deposited data

How the results depend on the processing

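The counts of genes with a peak were within 1.5 times of the main count, or the ratios within 1.5 times, under equal list lengths, the nearer gene only and summits within 200 bp, for every result these were run on. With a limit of 5 kb the number of genes with a peak was 21 for H9 SOX2 and 7, 26 and 16 for NT2/D1 SOX2, OCT4 and NANOG, the ratio of peaks per megabase to all genes was 5.42, 7.24 and 4.37 for H9 SOX2, OCT4 and NANOG (NT2/D1 0.777, 1.25 and 1.55, with NANOG above OCT4), and the genes with a 3-factor region were 10 in H9 and 0 in NT2/D1. With 10 kb the count was 15 for NT2/D1 SOX2 and 18 for NT2/D1 NANOG, and 1 gene had a 3-factor region in NT2/D1; a shorter limit takes in fewer peaks by construction. In the upper 50% of each list by score, 19 genes had an H9 SOX2 peak (37.3%, against 18.8% of all genes) and 11 an H9 3-factor region. With an FDR of at most 5%, 19 genes had an H9 SOX2 peak (37.3%, against 17.6%) and 23 an NT2/D1 OCT4 peak (45.1%, against 28.8%). With the NT2/D1 OCT4 and NANOG labels exchanged, 32 genes had an OCT4 and 48 a NANOG peak in NT2/D1, and 12 and 26 had one at the same site in both lines.

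The FDR limit has no single meaning here: the median deposited FDR of the upper 10% of peaks by score was 12.2% for NT2/D1 SOX2 and 15.1% for NT2/D1 NANOG, against 1.52% and 1.81% in the lower 50%, the reverse of the other 4 lists, so in these 2 lists it removes strong peaks. The median NT2/D1 peak at these genes held 14, 8 and 10 tags for SOX2, OCT4 and NANOG, against 41.5, 36 and 41 in H9. No paired analysis was possible because each group had 1 library, and for the same reason leaving out a library was not run.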

Other observations

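Several regions called in all 6 lists lay beyond 50 kb of the patterning gene that the lists name for them, and some were stronger than those within 50 kb. The strongest was 160.1 kb downstream of NKX6-1, at chr4:85257762-85259284 (hg19), with H9 folds of 28.3 (SOX2), 17.4 (OCT4) and 51.3 (NANOG) and NT2/D1 folds of 23.4, 27.5 and 32.6 in the same order, with a lowest percentile of 99.7. A second one lay 117.6 kb downstream of NKX6-1, with H9 folds of 15.7, 11.8 and 19.1 and NT2/D1 folds of 11.5, 14.9 and 6.48. Within 50 kb this gene had no NT2/D1 peak. The named gene is the one whose start is nearest on that side, and no measurement here ties a distant region to it.

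A region 325.2 kb downstream of the ZFHX3 start had H9 folds of 33.8, 15.1 and 58.1 and NT2/D1 folds of 18.9, 16.0 and 33.7, with a lowest percentile of 96.9. One 61.5 kb downstream of LMX1B had H9 folds of 25.4, 13.6 and 42.1 and NT2/D1 folds of 15.8, 20.1 and 14.1, with a lowest percentile of 99.0. SIX2, which had no NT2/D1 NANOG peak within 50 kb, was named for a region 205.7 kb downstream with H9 folds of 13.1, 5.04 and 26.2 and NT2/D1 folds of 16.1, 13.5 and 21.5. GBX2, which likewise had no NT2/D1 NANOG peak within 50 kb, was named for one 79.9 kb downstream with an NT2/D1 NANOG fold of 8.34.

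Of the 794 peaks at the patterning genes 10 (1.26%) were in the upper 1% of their lists, against 0.85% of the peaks within 50 kb of any gene. Of these 10, none lay within 5 kb of a start, and the nearest was at 8.1 kb, at GBX2. Some of the 10 were peaks of different lists at the same site, at VAX1, ZFHX3 and ISL1, so they are not independent of each other. Of the 855 such peaks within 50 kb of any gene, 204 (23.9%) lay within 5 kb, and with 10 peaks the difference was not tested.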
